A study of Mus musculus with 15 samples.

Results

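Cadherins, protocadherins and the catenins that bind cadherin tails were followed in total RNA of mouse cortex, 1 month past a course of high-frequency head impacts (HF-HI). The members were taken by name alone: protein-coding transcripts of genes named Cdh with a number, Pcdh, or Ctnna, Ctnnb or Ctnnd. The rule found 64 of the 10370 listed transcripts, and they belong to 50 genes. They comprise 13 transcripts of 11 classical and type II cadherins, 1 transcript of the atypical cadherin Cdh13, 10 transcripts of 5 catenins, 16 transcripts of 9 non-clustered protocadherins, and 22 transcripts of the alpha (5), beta (8) and gamma (9) protocadherin clusters. The names also brought in Ctnnbip1 and Ctnnbl1, which are not structural catenins. All libraries came from dissected cortex of male C57BL/6 mice with a labelled age of 12 weeks, 7 of them Sham and 8 of them HF-HI. HF-HI mice received repeated head impacts under isoflurane on consecutive days, and Sham mice went through the same sessions under isoflurane but were not hit. Cortex was sequenced as bulk tissue, so fewer cells of a type and less RNA per cell cannot be told apart.

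Classical cadherins are single-pass membrane proteins that bind like molecules on the neighboring cell in the presence of calcium, and in the brain they sit at the borders of synapses. Their tails hold p120-type catenins (Ctnnd1, Ctnnd2) near the membrane and beta-catenin (Ctnnb1) further along, and alpha-catenins (Ctnna1, Ctnna2) connect this complex to actin. Protocadherins lack the catenin-binding tail of the classical family. The clustered protocadherins give single neurons a surface identity, because neurons differ in the set of variable first exons they use. In the alpha and gamma clusters each first exon in use is spliced to the constant exons of its cluster.

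Levels are given as normalized counts, that is, reads recovered from the deposited variance-stabilized (VSD) values and divided by the size factor of the library. Depth differed between libraries. Recovered reads in the listed transcripts ran from 3496103 to 10582858, and size factors were between 0.818 and 1.47 for Sham libraries and between 0.501 and 1.22 for HF-HI libraries. HF-HI replicate 2 stood apart on the first principal component, and it also held the highest summed level of choroid plexus transcripts. Markers of excitatory cortical neurons were listed for 10 of 10 genes.

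Reads were counted per transcript, so the bases that tell listed isoforms apart decide which isoform a read is given to. Coding stretches from among these bases are shown for Pcdh10, Ctnnd1 and Pcdh19. These genes have a called isoform whose coding sequence differs from that of another listed isoform. Most of the bases that set the called isoforms apart lie outside the stretches shown. Pcdh10-202 has 4305 exonic bases in no other listed isoform, Pcdh19-202 has 1882 and Ctnnd1-203 has 826, none of the last in the stretch shown. Capitals mark coding bases found in that isoform and absent from the others compared, and lower case marks shared coding bases at their sides. Sequences are from GENCODE M21 on GRCm38, 5′ to 3′ on the strand of the gene, without the stop codon. The 3 Pcdh10 isoforms part at coding base 3104 and end in exons of their own (chr3:45432474-45432541, chr3:45419407-45419423 and chr3:45399323-45399360, plus strand).
Pcdh10-201: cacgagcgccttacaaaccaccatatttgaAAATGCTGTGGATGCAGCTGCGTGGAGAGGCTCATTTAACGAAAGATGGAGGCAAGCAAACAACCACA
Pcdh10-202: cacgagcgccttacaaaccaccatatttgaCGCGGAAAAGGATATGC
Pcdh10-203: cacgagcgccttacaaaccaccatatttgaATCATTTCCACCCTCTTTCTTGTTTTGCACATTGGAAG
Ctnnd1-203 and Ctnnd1-217 hold a coding exon of 63 bases (chr2:84605184-84605246, minus strand) that Ctnnd1-223 lacks, and they have identical coding sequences.
Ctnnd1-203: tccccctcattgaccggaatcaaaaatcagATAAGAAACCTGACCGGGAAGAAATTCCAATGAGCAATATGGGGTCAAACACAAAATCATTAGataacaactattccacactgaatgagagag
Pcdh19-202 has 144 coding bases more than Pcdh19-203, of which 141 lie in a single exon (chrX:133682092-133682232, minus strand).
Pcdh19-202: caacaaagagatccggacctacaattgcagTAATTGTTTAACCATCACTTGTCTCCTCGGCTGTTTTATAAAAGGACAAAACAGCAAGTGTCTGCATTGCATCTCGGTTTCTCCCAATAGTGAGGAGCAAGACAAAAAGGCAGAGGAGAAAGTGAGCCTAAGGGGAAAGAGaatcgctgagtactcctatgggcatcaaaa
Pcdh19-203 lies wholly within Pcdh19-202 (100% of its exonic bases), so no base is particular to the shorter isoform.

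Of the 64 members, 8 (12.5%) differed between HF-HI and Sham at an unadjusted limma p under 0.05, beside 8.83% of all listed transcripts. A member is called here when it passed that level. Higher in HF-HI were 2 members, Cdh11-201 and Pcdhga8-201, beside 4.94% of all transcripts called higher. Lower in HF-HI were 6, namely Cdh4-201, Cdh10-202, Ctnnd1-203, Pcdh10-202, Pcdh19-202 and Pcdhgc5-201, beside 3.90% of all transcripts. No member passed an adjusted p of 0.1 in limma, like all other listed transcripts (0.00% called). The smallest adjusted p among members was 0.351 (limma, Benjamini-Hochberg). The study set its threshold of 0.1 for a different test, the Wald test of DESeq2 on raw counts. From its own analysis the paper reports significantly altered genes in both directions between Sham and HF-HI cortex at this time point. The absence of adjusted calls in limma on VSD values therefore does not stand for the study's own result. Groups without overlap occurred in 0.154% of all transcripts and in 0 members. The median log2 ratio of mean normalized counts was −0.018 over the 64 members and −0.0019 over all transcripts, and 37 members had a ratio below 0. The p-values measure the spread between libraries labelled as separate samples, and whether each came from its own animal was not stated.

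**Figure D1:**
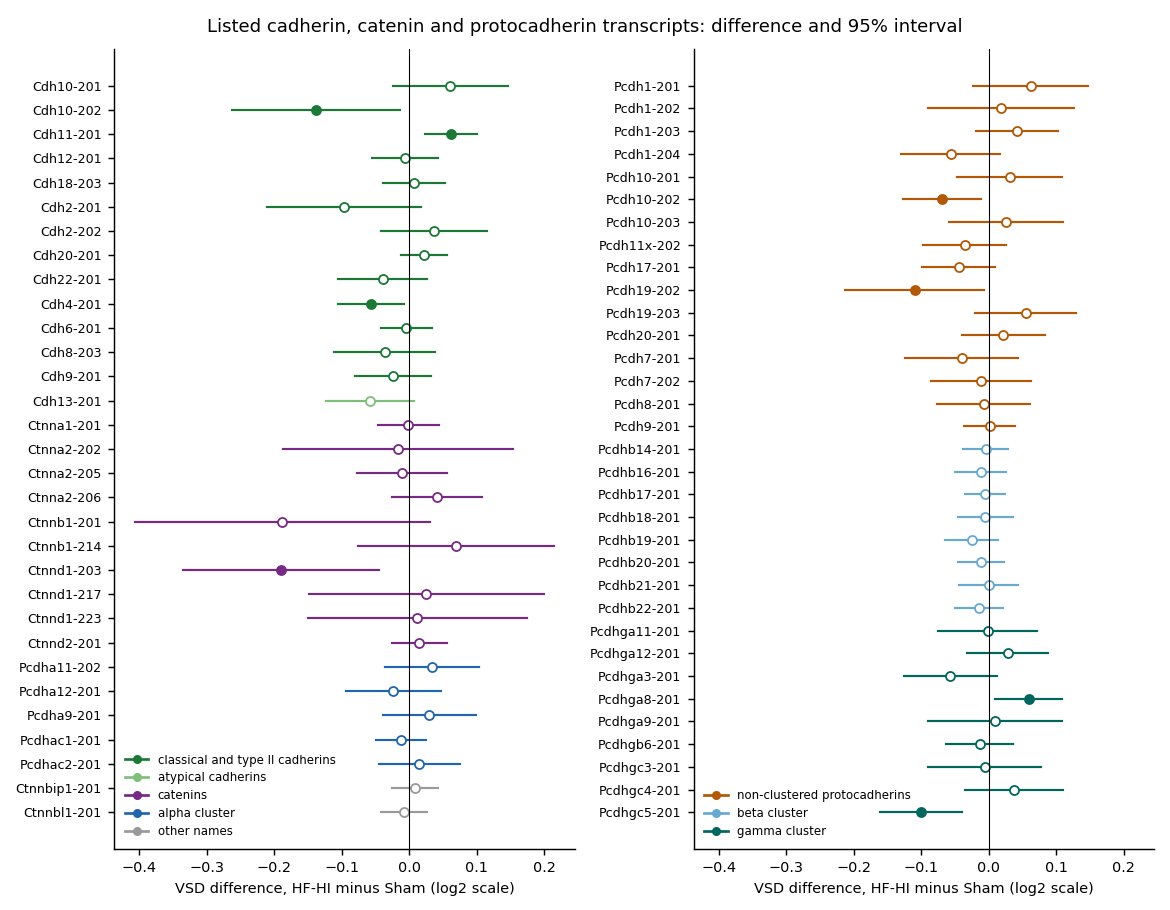
Difference in variance-stabilized (VSD) value, HF-HI minus Sham, on the log2 scale of DESeq2, for each of the 64 members, with its 95% interval from limma; filled points mark the 8 members at an unadjusted p under 0.05, and colors mark the structural groups. The 8 beta cluster transcripts lie between −0.025 and −0.00010, while isoforms of Ctnnb1, Ctnnd1 and Ctnna2 have the widest intervals.

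Among the classical and type II cadherins, 3 of 13 transcripts were called, 1 higher and 2 lower, beside 8.83% of all listed transcripts. Their median log2 ratio was −0.02. Cdh11-201 (ENSMUST00000075190, chr8:102632095-102785642), a type II cadherin found at synapses, had normalized counts with a lowest, median and highest value of 605, 654 and 742 in Sham. In HF-HI they were 693, 731 and 801. Each of the 8 HF-HI libraries exceeded the median of Sham, and 3 of them exceeded every Sham library. The means were 661 ± 43.9 in Sham and 735 ± 35.5 in HF-HI (SD), a log2 ratio of 0.15 and a VSD difference of 0.06 (SE 0.0181, limma unadjusted p = 0.00363, adjusted p = 0.351). Cdh11 is listed as a single transcript, and it was called at a p under 0.05 with each library left out in turn. With depth as a covariate the unadjusted p was 0.0171, and in the deeper libraries, those whose size factor exceeded 1 (6 Sham, 3 HF-HI), the means were 670 and 716 with no call (unadjusted p = 0.144).

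Cdh4-201 (ENSMUST00000000314, chr2:179442431-179899373), which encodes R-cadherin, was among the least abundant members per length. Its lowest, median and highest normalized counts were 110, 120 and 184 in Sham and 90.8, 104 and 131 in HF-HI. The upper end of the Sham range came from 2 libraries, and 7 of 8 HF-HI libraries were under the median of Sham. The log2 ratio was −0.32 (limma unadjusted p = 0.0259, adjusted p = 0.514). Without Sham replicate 3 or Sham replicate 4 the call was lost. With depth as a covariate the VSD difference was −0.05, against −0.06 without it, with no call (unadjusted p = 0.101).

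Cdh10, a type II cadherin, was listed with 2 coding isoforms of identical coding sequence, which share 89.1% of the exonic bases of Cdh10-201 and 95.6% of those of Cdh10-202. Cdh10-202 (ENSMUST00000166873, chr15:18818947-19014236) had a lowest, median and highest normalized count of 177, 208 and 252 in Sham and of 27.4, 142 and 226 in HF-HI. The spread in HF-HI was wide, with 5 libraries under every Sham library and 2 above the Sham median. Its log2 ratio was −0.55 (VSD difference −0.14, limma unadjusted p = 0.0327, adjusted p = 0.525). Cdh10-201 went from 174 ± 36.8 to 212 ± 57.7, a log2 ratio of 0.28 that was not called (unadjusted p = 0.148). Summed over its 3 listed transcripts, 1 of them with a retained intron, the Sham mean of Cdh10 was 507 ± 33.4 and the HF-HI mean 482 ± 25.9, and the log2 difference by limma voom was −0.06 (95% interval −0.17 to 0.04, unadjusted p = 0.206). Cdh10-202 lost its call on leaving out Sham replicate 3 or 6, as well as replicate 3, 5 or 6 of HF-HI, while with depth as a covariate its unadjusted p was 0.00420. In that fit Cdh10-201 was called in the opposite direction, higher in HF-HI (VSD difference 0.11, limma unadjusted p = 0.0263).

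Cdh2, which encodes N-cadherin, the main classical cadherin of excitatory synapses, was not called in either coding isoform. Cdh2-201 averaged 398 ± 42.3 counts for Sham and 327 ± 99.3 for HF-HI (limma unadjusted p = 0.0907), and Cdh2-202 averaged 517 ± 68.0 and 556 ± 85.9 (unadjusted p = 0.331). The VSD difference of Cdh2-201 went from −0.097 to −0.0034 with depth as a covariate (limma unadjusted p = 0.949). Summed over its listed transcripts, including a transcript with a retained intron, Cdh2 had 1087 ± 58.6 and 1077 ± 51.6 counts. The voom log2 difference was −0.0027 with a 95% interval from −0.09 to 0.08. The retained-intron transcript Cdh2-203, which the rule does not take, was itself higher (172 ± 23.0 and 194 ± 14.7, limma unadjusted p = 0.0484). Cdh12-201, close to Cdh11-201 in normalized count, had 656 ± 43.3 and 649 ± 56.2 with no call (unadjusted p = 0.776). Cdh13-201, which encodes T-cadherin, a cadherin held to the membrane by a lipid anchor without a cytoplasmic tail, had 381 ± 57.6 and 332 ± 41.0, and 7 of 8 HF-HI libraries were below the Sham median (unadjusted p = 0.0746). Of the remaining type II members Cdh6, Cdh8, Cdh9, Cdh18, Cdh20 and Cdh22, none was called.

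**Figure D2:**
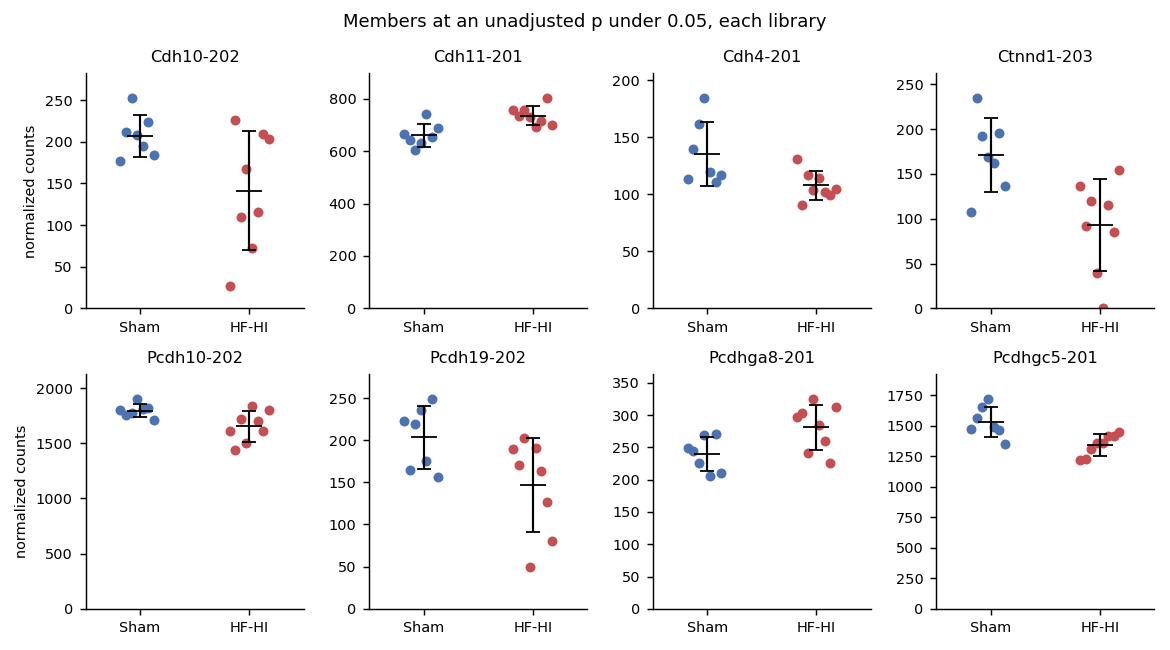
Normalized counts of the 8 called members in each of the 7 Sham and 8 HF-HI libraries; each point is a library, horizontal marks are means and bars are SD, and every axis starts at 0. The groups overlap in all 8 panels, and in HF-HI the points of Cdh10-202, Ctnnd1-203 and Pcdh19-202 spread widest relative to their mean.

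Catenins were called in 1 of 10 transcripts, beside 8.83% of all listed transcripts. Beta-catenin, the junctional and Wnt-signaling catenin, was the most abundant member per length, with Ctnnb1-214 at 903 normalized counts per kb. Its 2 listed isoforms have the same coding sequence, and every exonic base of Ctnnb1-214 lies within Ctnnb1-201. Ctnnb1-201 (ENSMUST00000007130, chr9:120933400-120960507) had a lowest, median and highest normalized count of 475, 531 and 1761 in Sham and of 353, 455 and 589 in HF-HI. Ctnnb1-214 (ENSMUST00000178812, chr9:120933572-120959780) had 1352, 2499 and 2774 in Sham and 2344, 2507 and 2680 in HF-HI. The highest value of the first and the lowest of the second were the same library, Sham replicate 2, whose sum over both isoforms (3113) was close to the mean of the other 6 Sham libraries (3062 ± 131). Neither isoform was called (limma unadjusted p = 0.0863 and unadjusted p = 0.328), and without Sham replicate 2 the log2 ratio of Ctnnb1-201 moved from −0.62 to −0.21 and it was called. The 2 listed isoforms together averaged 3070 ± 121 counts for Sham and 2973 ± 107 for HF-HI. The voom log2 difference was −0.05 with a 95% interval from −0.11 to 0.02.

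The p120 catenin gene Ctnnd1, whose product binds the membrane-near part of cadherin tails and holds cadherins at the surface, had 3 listed isoforms. Ctnnd1-203 (ENSMUST00000067232, chr2:84600073-84650676) had a lowest, median and highest normalized count of 107, 169 and 234 in Sham and of 0.822, 104 and 155 in HF-HI. All 8 HF-HI libraries were below the Sham median, 4 of them below every Sham library, and the lowest, HF-HI replicate 5, held a single read. The means were 171 ± 41.6 and 93.1 ± 51.1, the most negative log2 ratio among the members at −0.88 (VSD difference −0.19, limma unadjusted p = 0.0138, adjusted p = 0.448). The isoform with the same coding sequence, Ctnnd1-217, had 147 ± 109 and 146 ± 56.8, and Ctnnd1-223, which lacks the 63-base exon shown above, had 178 ± 62.8 and 194 ± 99.9. Summed over the isoforms, Ctnnd1 had 496 ± 95.2 and 434 ± 88.2, a voom log2 difference of −0.20 with a 95% interval from −0.50 to 0.09 (unadjusted p = 0.158). The call on Ctnnd1-203 held with each library left out and with depth as a covariate (unadjusted p = 0.0346), and was lost on the scale of log2 normalized counts. In the deeper libraries the log2 ratio was −0.87, with no call (unadjusted p = 0.0657). Only 3 of these were HF-HI, replicates 3, 5 and 8, with 120, 0.822 and 155 normalized counts. The ratio there leans on the library with a single read.

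No isoform of the neural catenins was called. Ctnnd2-201, delta-catenin of dendrites and spines, averaged 1915 ± 74.1 counts for Sham and 1950 ± 80.7 for HF-HI. Ctnna2, the neuronal alpha-catenin, was carried mostly by Ctnna2-205 (1043 ± 99.4 and 1026 ± 88.8), beside Ctnna2-202 (131 ± 57.9 and 126 ± 78.5) and Ctnna2-206 (122 ± 23.3 and 143 ± 34.9). The sum of these listed isoforms had a voom log2 difference of −0.00052 with a 95% interval from −0.09 to 0.09. Ctnna1-201, the alpha-catenin of most tissues, had 520 ± 18.3 and 520 ± 53.6. Ctnnbip1-201, an inhibitor of the binding of beta-catenin to TCF factors, had 262 ± 18.3 and 269 ± 20.8, and Ctnnbl1-201, a protein tied to the spliceosome, had 177 ± 13.9 and 172 ± 15.4.

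**Figure D3:**
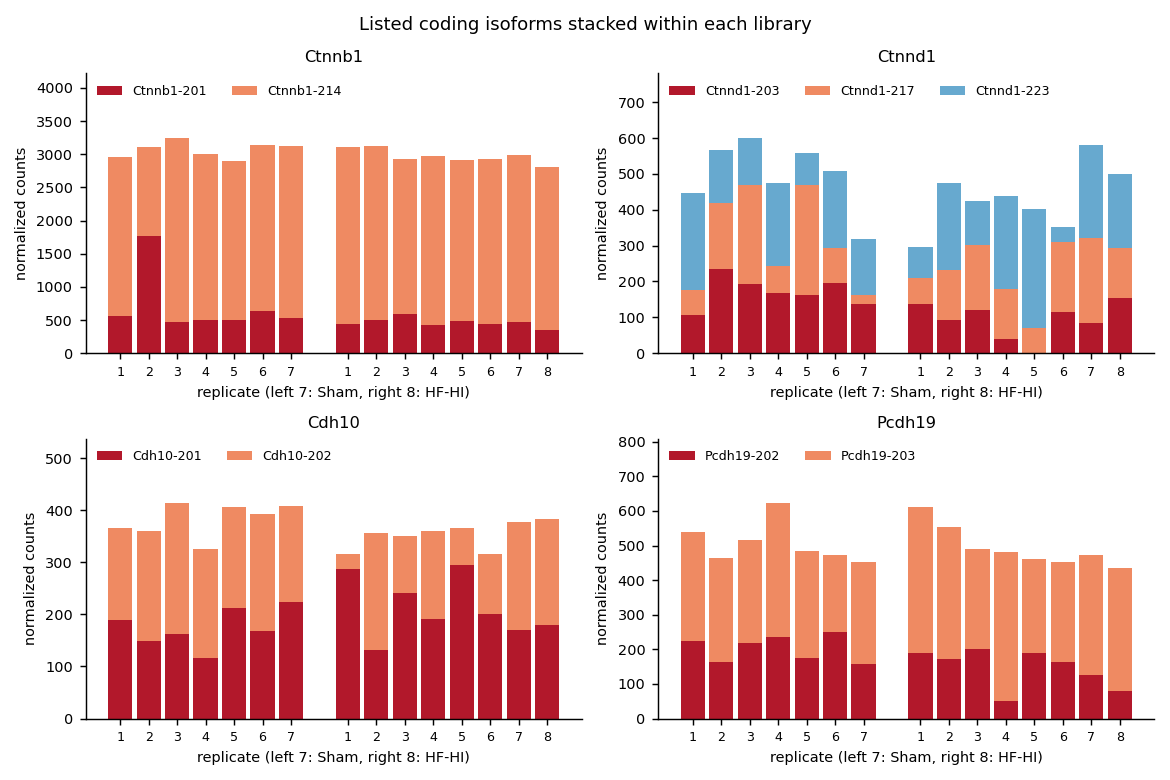
Normalized counts of the listed coding isoforms of Ctnnb1, Ctnnd1, Cdh10 and Pcdh19, stacked within each library, with the 7 Sham libraries at the left of each panel and the 8 HF-HI libraries at the right. The division between isoforms varies from library to library, most visibly for Ctnnb1 in Sham replicate 2, while the stack heights of Ctnnb1 stay between 2806 and 3248.

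Non-clustered protocadherins were called in 2 of 16 transcripts, both lower, beside 8.83% of all listed transcripts called in either direction. Their median log2 ratio was −0.01. Pcdh10-202 (ENSMUST00000170695, chr3:45378427-45423711), an isoform of a delta-2 protocadherin that acts in axon growth and synapse elimination, had a lowest, median and highest normalized count of 1713, 1802 and 1903 in Sham. In HF-HI they were 1442, 1656 and 1839. In HF-HI 5 libraries lay under every Sham library, and 7 were under the median of Sham. The means were 1797 ± 58.9 and 1653 ± 138, a log2 ratio of −0.12 (limma unadjusted p = 0.0211, adjusted p = 0.487). Pcdh10-201 and Pcdh10-203, which differ from it in the coding ends shown above, had 356 ± 20.2 and 392 ± 50.4 in Sham and 386 ± 82.0 and 417 ± 92.7 in HF-HI, with no call. Pcdh10-202 held 70.6% ± 1.59 of the counts of the listed coding isoforms in Sham and 67.2% ± 3.61 in HF-HI. The sum over the listed isoforms gave a voom log2 difference of −0.05 (95% interval −0.11 to 0.01, unadjusted p = 0.105). Depth moved with this result: in the deeper libraries the means were 1800 for Sham and 1786 for HF-HI, and with depth as a covariate the VSD difference went from −0.07 to −0.017 (unadjusted p = 0.480). The part of depth in the difference was not tested further.

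Pcdh19-202 (ENSMUST00000149154, chrX:133582860-133688987), the longer of 2 isoforms of a delta-2 protocadherin that is X-linked and tied to epilepsy in people, had 156, 219 and 249 as its lowest, median and highest normalized count in Sham. The corresponding values in HF-HI were 49.9, 167 and 202. All 8 HF-HI libraries were below the Sham median, and the log2 ratio was −0.47 (limma unadjusted p = 0.0372, adjusted p = 0.539). Pcdh19-203, which lacks the 141-base exon, had 304 ± 47.8 in Sham and 347 ± 62.1 in HF-HI, and was not called (unadjusted p = 0.141). The sum over both gave 507 ± 58.8 and 494 ± 58.6, a voom log2 difference of −0.05 with a 95% interval from −0.22 to 0.12. The longer isoform held 40.1% ± 6.35 of the sum in Sham and 29.6% ± 10.9 in HF-HI. With depth as a covariate the VSD difference went from −0.11 to −0.055 (unadjusted p = 0.332). Of the 8 calls this one was lost most often on leaving out a library, for any of 7 (Sham replicates 1, 3, 4 and 6 and HF-HI replicates 4, 7 and 8).

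The protocadherins most abundant per length, Pcdh9-201 and Pcdh7-202, were not called. Pcdh9-201, a delta-1 protocadherin, averaged 2102 ± 79.1 counts for Sham and 2104 ± 66.7 for HF-HI, a 95% interval for the voom log2 difference from −0.06 to 0.06. Pcdh7-202, another delta-1 member, had 1710 ± 109 and 1689 ± 167, and its shorter-coding isoform Pcdh7-201 had 299 ± 62.8 and 270 ± 54.9. Pcdh17-201, a delta-2 member found in corticobasal ganglia circuits, had 915 ± 86.4 and 852 ± 52.5, with 7 of 8 HF-HI libraries below the Sham median and no call (unadjusted p = 0.0974). Its VSD difference went from −0.045 to −0.021 with depth as a covariate (limma unadjusted p = 0.498). Pcdh1 was spread over 4 isoforms with log2 ratios between −0.17 and 0.27, none called, and its gene sum was 1463 ± 124 in Sham and 1501 ± 34.3 in HF-HI. Pcdh8, Pcdh11x and Pcdh20 were not called.

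The 3 protocadherin clusters lie next to each other on chromosome 18. Of the annotated protein-coding genes there, 5 of 13 were listed in the alpha cluster, 8 of 22 in the beta cluster and 9 of 22 in the gamma cluster. The 5 alpha transcripts share 2860 exonic bases in 3 exon blocks, 456 of them coding, which make up 48.6% to 53.6% of each transcript. The 9 gamma transcripts share 2116 bases in 3 blocks, 372 of them coding, or 41.7% to 45.2% of each transcript. Beta transcripts share no base with each other. Reads wholly within constant exons fit every alpha or every gamma transcript equally and were divided between them by the counting, so the values of single alpha and gamma members are uncertain. Beta genes share no exon but are related in sequence, and how ambiguous reads were assigned to them could not be checked from the deposited values.

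**Figure D4:**
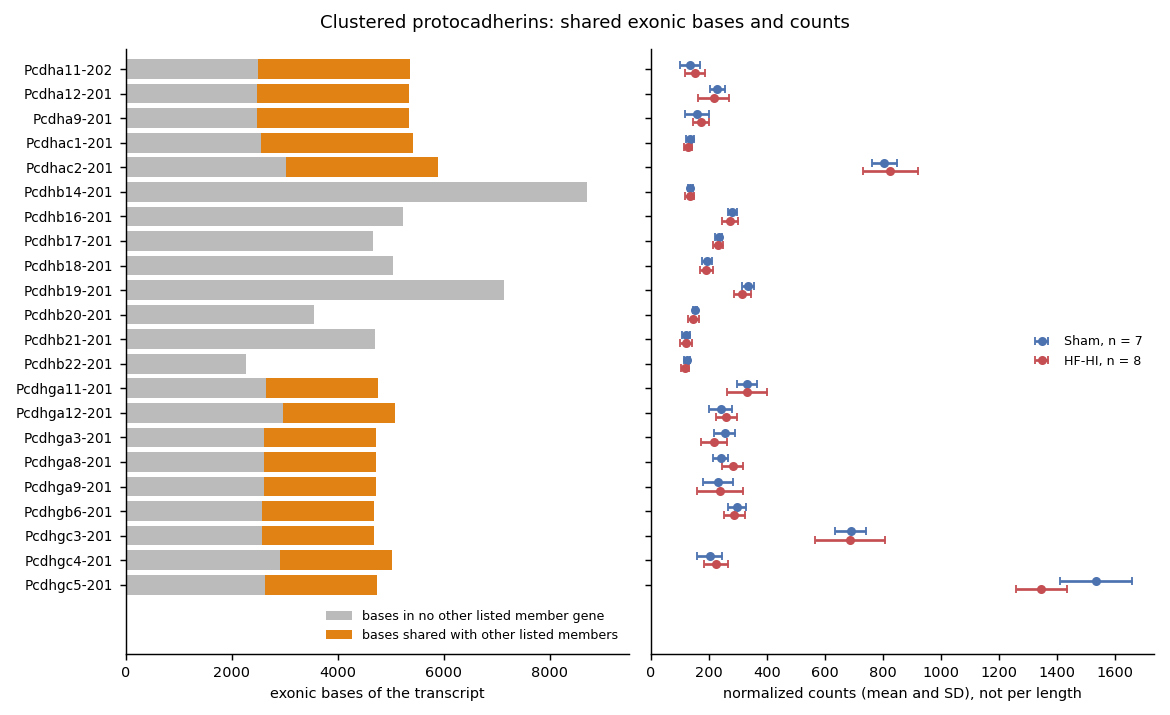
Left, exonic bases of each of the 22 clustered protocadherin transcripts, split into bases shared with other listed members (orange) and bases of their own (gray); right, normalized counts in Sham (blue, n = 7) and HF-HI (red, n = 8) as means with SD bars. Alpha and gamma transcripts share between 41.7% and 53.6% of their bases while beta transcripts share none, and Pcdhgc5-201 has the highest counts.

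In the gamma cluster 2 of 9 transcripts were called, in opposite directions, beside 8.83% of all listed transcripts. Pcdhgc5-201 (ENSMUST00000055935), a C-type isoform of the gamma cluster whose first exon is the closest to the constant exons, had a lowest, median and highest normalized count of 1354, 1492 and 1722 in Sham. In HF-HI they were 1220, 1357 and 1453. Each of the 8 HF-HI libraries was under the median of Sham and 3 were under every Sham library, although 5 of 8 stayed within the Sham range. The means were 1532 ± 124 and 1345 ± 88.2, a log2 ratio of −0.19 and a VSD difference of −0.10 (SE 0.0286, limma unadjusted p = 0.00318, adjusted p = 0.351). It kept its call with each library left out and with depth as a covariate (unadjusted p = 0.0104), and in the deeper libraries the means were 1513 and 1373 with no call (unadjusted p = 0.0853). Pcdhgc5-201 made up 38.2% ± 1.76 of the counts of the 9 listed gamma transcripts in Sham and 34.8% ± 2.05 in HF-HI.

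Pcdhga8-201 (ENSMUST00000066149), an A-type gamma isoform, had 206, 245 and 271 as its lowest, median and highest normalized count in Sham and 226, 291 and 326 in HF-HI. Above every Sham library lay 5 of 8 HF-HI libraries, and 2 lay below the Sham median. The log2 ratio was 0.23 (limma unadjusted p = 0.0220, adjusted p = 0.496), and the call was lost without Sham replicate 5. With depth as a covariate the VSD difference was 0.06, as without it, with no call (unadjusted p = 0.0537). The C-type isoforms Pcdhgc3-201 and Pcdhgc4-201 had 687 ± 52.7 and 202 ± 43.3 in Sham and 684 ± 120 and 224 ± 41.7 in HF-HI, with no call. Summed over its 9 listed members, the gamma cluster averaged 4010 ± 234 counts for Sham and 3866 ± 122.7 for HF-HI, a voom log2 difference of −0.05 with a 95% interval from −0.12 to 0.02 (unadjusted p = 0.159).

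No listed alpha or beta transcript was called, beside 8.83% of all listed transcripts. Pcdhac2-201, the most abundant alpha member, averaged 803 ± 42.9 counts for Sham and 825 ± 93.7 for HF-HI, and Pcdhac1-201 averaged 133 ± 14.05 and 127 ± 14.02. Counts of the listed alpha members summed to 1458 ± 64.1 and 1492 ± 50.8, a voom log2 difference of 0.03 with a 95% interval from −0.04 to 0.10. The beta members varied least of the 3 clusters. Their log2 ratios lay between −0.09 and 0.01, and their median coefficient of variation over Sham libraries was 6.43%, beside 10.9% in the gamma cluster, 11.3% in the alpha cluster and 10.5% over all listed transcripts. Counts of the listed beta members summed to 1569 ± 59.1 and 1521 ± 40.5, a voom log2 difference of −0.04 (95% interval −0.10 to 0.02).

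Reads summed over the listed transcripts of a gene do not depend on how reads are divided between those transcripts. Any reads given to isoforms that are not listed are missing from these sums. On this level 4 of 50 member genes (8%) were called by limma voom, beside 9.34% of all genes, and none passed an adjusted p of 0.1 (smallest 0.275). Cdh11 and Pcdhga8 were higher, and Cdh4 and Pcdhgc5 were lower. All 4 are genes with a single listed transcript, so the sum added no reads for them. Pcdhga8 and Pcdhgc5 share 44.8% and 44.7% of their exonic bases with other listed gamma genes. A gene sum still depends on how such reads were divided between genes. The gene-level call of Cdh4 was lost on leaving out any of 9 libraries (Sham replicates 2, 3 and 4 and HF-HI replicates 2, 4, 5, 6, 7 and 8) and with depth as a covariate, while the other 3 kept theirs in each of these fits. The 4 other called members, Cdh10-202, Ctnnd1-203, Pcdh10-202 and Pcdh19-202, belong to the 9 genes with several listed coding isoforms, and none of those 9 genes was called (smallest unadjusted p = 0.105). Among them Ctnnb1 was called with depth as a covariate, Ctnnd1 without Sham replicate 7 and Pcdh1 without Sham replicate 4. The 95% interval lay within 0.5 on the log2 scale for 48 of the 50 genes and within 0.3 for 35.

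The spread over Sham libraries was also compared between isoforms and genes. Over the 23 members with a listed coding sister isoform the median coefficient of variation was 18.3%, and over the 41 members without one it was 10.6%. In 8 of 9 genes the sum varied less than each of its listed transcripts, with Pcdh1 as the exception. A sum also varies less when its parts vary independently, so the SD of each sum was set beside the SD that independent isoforms would give. The observed SD was the smaller one in 8 of 9 genes in Sham and in 9 of 9 in HF-HI, with Pcdh1 in Sham as the exception. Some gaps were small, such as 58.8 against 60.5 for Pcdh19 in Sham and 173 against 176 for Pcdh7 in HF-HI. The same comparison is not given for genes outside the members. For Ctnnb1 in Sham it was 121 against 657, but most of that gap came from Sham replicate 2, without which the values were 131 and 154. For Cdh10 in HF-HI the values were 25.9 and 93.6.

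**Figure D5:**
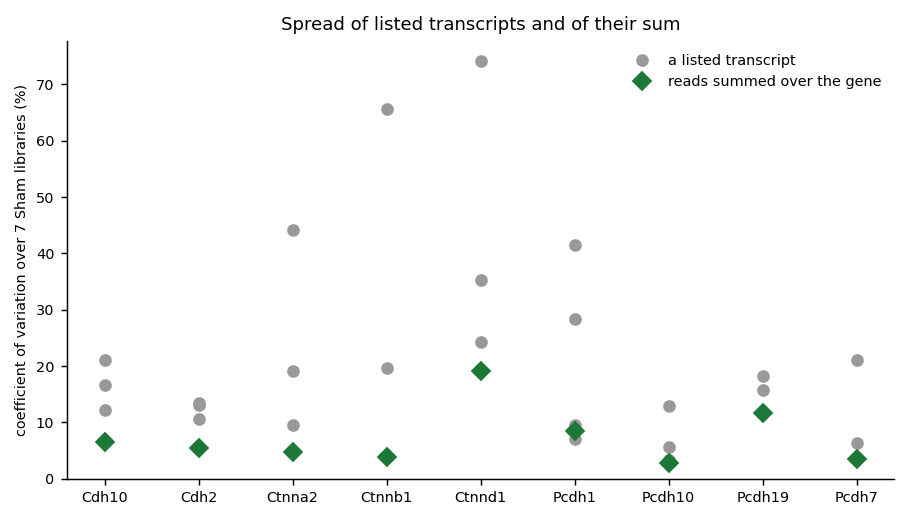
Coefficient of variation over the 7 Sham libraries, in percent, for the 9 member genes with several listed coding isoforms; gray points are single listed transcripts and green diamonds are the reads summed over the gene. The sums lie between 2.86% and 19.2%, below every isoform of the gene except for Pcdh1.

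Partners and regulators of these proteins were read from 4 lists. Of 89 genes, 68 were listed, with 111 transcripts, of which 12 (10.8%) were called, 7 higher and 5 lower, a share near the 8.83% of all listed transcripts. Among junction and catenin partners 5 of 38 transcripts were called. Cttn-201, the actin-binding cortactin, was higher (481 ± 32.5 and 532 ± 49.2 normalized counts), as was Adam10-201, the protease that cleaves N-cadherin (742 ± 42.0 and 793 ± 42.8). Pkp4-202 (p0071, a relative of p120 catenin), Lin7c-201 (a scaffold of cell junctions) and Ptprf-201 (a receptor phosphatase) were lower. Pkp4-202 had 999 ± 134 and 819 ± 174 counts, while its sister isoform Pkp4-203 had 255 ± 191 and 382 ± 132 with no call (unadjusted p = 0.0874). In the wider cadherin superfamily 2 of 11 transcripts were called, both higher: Celsr3-201, a seven-pass cadherin of axon guidance (962 ± 51.6 and 1046 ± 33.6), and Clstn1-201, the less abundant listed isoform of calsyntenin 1 (1736 ± 133 and 2032 ± 225). The main isoform, Clstn1-202, had 9296 ± 320 and 9034 ± 376 with no call (unadjusted p = 0.201). Of 37 transcripts for the degradation and signaling of beta-catenin only the Wnt co-receptor Lrp6-201 was called (816 ± 17.1 and 884 ± 41.5). Among 25 transcripts for promoter choice and signaling of the clustered protocadherins, Pds5b-202, a cohesin regulator, and Ptk2b-205 were higher, and Ptk2b-208 and Fyn-202, kinases downstream of protocadherins, were lower. Ptk2b, the kinase Pyk2, was called in opposite directions in 2 of its isoforms. The smallest adjusted p among all 111 was 0.351 (limma).

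Several marker lists also differed in level between libraries. Over all listed transcripts 8.83% were called, 4.94% higher and 3.90% lower, and the calls below stand beside those shares. Striatal transcripts summed to between 12263 and 18196 counts in Sham libraries and between 9322 and 17662 in HF-HI libraries. Of them 3 of 22 were called, all lower, and 14 of 15 genes were listed, Drd2 not among them. A covariate was made from the mean standardized VSD of the striatal list, which weights its transcripts equally and so orders the libraries differently from the sum. With it the VSD differences of 3 called members became smaller and their calls were lost. Cdh10-202 went from −0.14 to −0.11 (unadjusted p = 0.0846), Pcdh10-202 from −0.07 to −0.06 (unadjusted p = 0.0570) and Pcdh19-202 from −0.11 to −0.095 (unadjusted p = 0.0855). The other 5 kept their calls. Of these, Cdh11-201 went from 0.062 to 0.048 (limma unadjusted p = 0.00926) and Pcdhgc5-201 from −0.100 to −0.082 (unadjusted p = 0.00964). Cdh4-201, Ctnnd1-203 and Pcdhga8-201 did not become smaller (−0.058, −0.20 and 0.063 with the covariate). Choroid plexus transcripts summed to between 2131 and 11518 in Sham libraries and between 2181 and 14140 in HF-HI libraries, and 6 of the 9 choroid genes, including Folr1, Kcnj13 and Otx2, were not listed. Of 14 transcripts for excitatory neurons 2 were called, both higher, and of the interneuron, oligodendrocyte and endothelial lists 0 of 7, 0 of 18 and 0 of 5 were called. Astrocyte and microglial lists had 1 called transcript each, Aldoc-201 and P2ry12-202, both lower. The part of these lists in the differences of the members was not tested beyond the striatal covariate.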

How the data were processed

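Per the study's methods, the authors made stranded libraries from ribosome-depleted total RNA of dissected cortex, aligned reads to mm10 with STAR, estimated counts per transcript with eXpress, scaled and transformed them with DESeq2, and applied a Cook's distance cutoff to outliers; the annotation release is not given in the sources used here. The processing notes the authors submitted also name STAR, DESeq2 and mm10. The values deposited by the authors are variance-stabilized (VSD) and on a log2 scale, for 10370 transcripts and 15 libraries. Low counts are compressed: going from 100 normalized counts to a doubled level adds 0.20 to the VSD, and starting at 1000 it adds 0.53. The transformation was inverted, which gave whole reads within 0.1 for 100% of the values, and from them normalized counts. The lowest mean was 107.9 normalized counts, so transcripts of lower abundance were not analysed here. GENCODE M21 names matched 10241 transcripts.

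Each transcript was tested with limma 3.58.1 in R 4.3.3 on these values (a two-sided test of HF-HI minus Sham with no covariate, moderated by eBayes with an intensity trend), with Benjamini-Hochberg adjustment over all transcripts. Whole reads summed over the listed transcripts of each gene were tested with limma voom. A call means an unadjusted p under 0.05. Depth as a covariate means the log2 size factor. Named transcripts were the called members, the 2 of highest mean normalized count in each of 6 structural groups (the 3 protocadherin clusters taken as 1), and the transcripts of 19 fixed genes. The members, the partner and marker lists and the tests were chosen with earlier results of these data known. The code was tested on simulated data. SD values are over 7 Sham or 8 HF-HI libraries. Alternatives changed the prior, the scaling, the log scale, the filter on low counts, the weights, the covariates, a block on replicate number and each library left out in turn.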

Additional observations from a re-analysis of the deposited data

Results flagged for a closer look

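In groups of 7 or 8 libraries, 82 sets of normalized counts (38 named transcripts and 3 cluster sums in each group) were searched for a library far from the others by Dixon's criterion, which chance alone meets in about 1 of 20 groups, and 6 met it. In Ctnnb1-201 Sham replicate 2 had 1761 normalized counts while the next highest Sham library had 642, and in Ctnnb1-214 the same library had 1352 while the next lowest had 2387. In Ctnna2-202 Sham replicate 7 had 16.4 while the next lowest Sham library had 118. In Pcdh10-203 HF-HI replicate 2 had 615, the next highest being 453. In Pcdh7-201 Sham replicate 3 had 426, the next highest being 307, and in Ctnnbl1-201 HF-HI replicate 4 had 138, the next lowest being 169. Of the 6, 5 were isoforms of genes with several listed coding transcripts, 2 of these being the same library in Ctnnb1, while 23 of the 38 named transcripts belong to such genes, and none of the 3 cluster sums met the criterion.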

How the results depend on the processing

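The count of 8 called member transcripts stayed between 6 and 8 with another prior, scaling or log scale, with voom per transcript, with library weights, with depth as a covariate and with the replicate block, and was 9 with all transcript types of the member genes. The count hides some exchange: depth as a covariate kept 4 of the 8 and added Cdh10-201 and Pcdha9-201, and library weights kept 5 and added Cdh10-201 and Cdh13-201. It was 5 with the striatal covariate, 4 where only libraries of size factor above 1 were kept (1 of the 8, Cdh10-202, with Ctnna2-206, Pcdh1-204 and Pcdha12-201 added), and 3 of 27 members with a mean of at least 300, and ranged from 5 to 10 with each library left out (5 without Sham replicate 3); the smaller sets hold fewer transcripts or libraries. All listed transcripts gave 533 calls (5.14%, beside 9.38% of members) with depth as a covariate, instead of 916 (8.83%). They gave 541 (5.22%, beside 6.25%) above a size factor of 1 and 525 (9.65%, beside 11.1%) with the stricter filter. The striatal covariate gave 8.32% of all transcripts, beside 7.81% of members. With a library left out 7.21% to 9.52% of all transcripts were called, beside 7.81% to 15.6% of members. Partner transcripts gave 6 with library weights, 3 with depth as a covariate and 6 above a size factor of 1, instead of 12. Member genes gave 2 with clusters summed, instead of 4, because Pcdhgc5 and Pcdhga8 then enter sums, and 3 to 5 with a library left out; with the replicate block Cdh4 was lost and Pcdhga3 gained. Counts at an adjusted p under 0.1 were 0 among members in all 27 settings. With a replicate block, which leaves out HF-HI replicate 8, 7 members were called, 6 of them among the 8. The numbers did not pair the samples: same-number correlations ran from −0.14 to 0.09. No called member changed direction. Reads per library limit low members most: the median counting error of the members was 5.69% in Sham, beside a median spread of 10.8%.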
